A study of Homo sapiens with 10 samples.

Results

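The stretch of human chromosome 8 that carries MYC and PVT1 was examined in every deposited CUT&RUN signal track of a study of γH2AX after ionising radiation. It spans hg19 chr8:127500001-129700000 and holds 2200 bins of 1 kb out of 2820626 bins in each track. Inside it, MYC occupies chr8:128748315-128753680 (6 bins touched) and PVT1 occupies chr8:128806779-129113499 (308 bins, 14.0% of the stretch). The remainder was divided by position into 1249 bins before MYC, 54 bins between MYC and PVT1 and 587 bins after PVT1. The part after PVT1 was included as a distal regulatory stretch of MYC. No enhancer map and no mark of active enhancers was used here, so that name could not be checked. An hg19 annotation was not used either, so exons, introns and untranslated regions were not told apart.

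γH2AX is the histone variant H2AX phosphorylated on its tail by the damage kinases ATM, ATR and DNA-PK. It spreads along the chromatin on both sides of a DNA double-strand break and recruits repair factors. MYC encodes a transcription factor that drives growth and proliferation and is among the most often amplified oncogenes. PVT1 is a long noncoding RNA gene downstream of MYC in the same orientation, often amplified together with it, and its body holds enhancers that can act on MYC. In RefSeq gene order the neighbours are POU5F1B, a retrogene of the POU5F1 family, and CASC11, a noncoding RNA gene, before MYC. RefSeq lists 4 microRNA genes inside PVT1 (MIR1204, MIR1205, MIR1206 and MIR1207), followed by MIR1208 and the noncoding RNA gene LINC00824.

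In CUT&RUN a nuclease is brought to an antibody bound in the nucleus, cuts the DNA around the antibody's target, and the fragments set free are sequenced. The libraries came from K562, an erythroleukaemia cell line, and HepG2, a hepatocellular carcinoma line. The dose was 6 Gy from a cobalt source. γH2AX was profiled 1 h (n = 2) or 24 h (n = 2) after it in K562 and 1 h after it in HepG2 (n = 1), and H3K27me3, the repressive mark laid down by Polycomb complexes, in K562 at 1 h (n = 1). Untreated K562 (n = 2) and untreated HepG2 (n = 2) gave the libraries titled H2AX, whose antibody label names histone H4. They serve as the chromatin background of each line whichever histone was bound. No γH2AX library of unirradiated cells was analysed here, so the radiation dose and the antibody change together in every comparison with H2AX. Nothing in the labels ties replicates to separate cultures. The p-values below therefore measure a spread between libraries that may be technical.

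All levels below are mean read depth divided by the mean depth of the same library, so 1 is the average of the genome. They are per base and can be compared between genes of different length. The tracks hold between 22.3 and 83.1 read equivalents in units of 1e6. In 2500 bins of chromosome 9 from 22 Mb on, a segment that K562 is known to lack, all K562 libraries lay at or below 0.00420 and the HepG2 libraries between 0.913 and 1.02. Steps in the tracks correspond to reads of 60 bp in the K562 1 h γH2AX and H3K27me3 libraries and of 41 bp in the other libraries, so read length and group cannot be told apart between 1 h and either H2AX or 24 h. K562 24 h replicate 1 stands apart: its track is exactly 0 in every bin in which the mean 1 h depth exceeds 1.642. That depth was set as the highest at which the track is above 0, so zeros beyond it are fixed by its choice. Their number was not fixed: 933070 bins (33.1% of the genome) lie beyond it. Replicate 2 is at 0 in 0.316% of those bins. The zeros take in all 6 bins of MYC and 299 of 308 bins of PVT1, none of which is at 0 in replicate 2. That library is listed with its values but left out of the tests, and results with it are given where they differ.

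**Figure D1:**
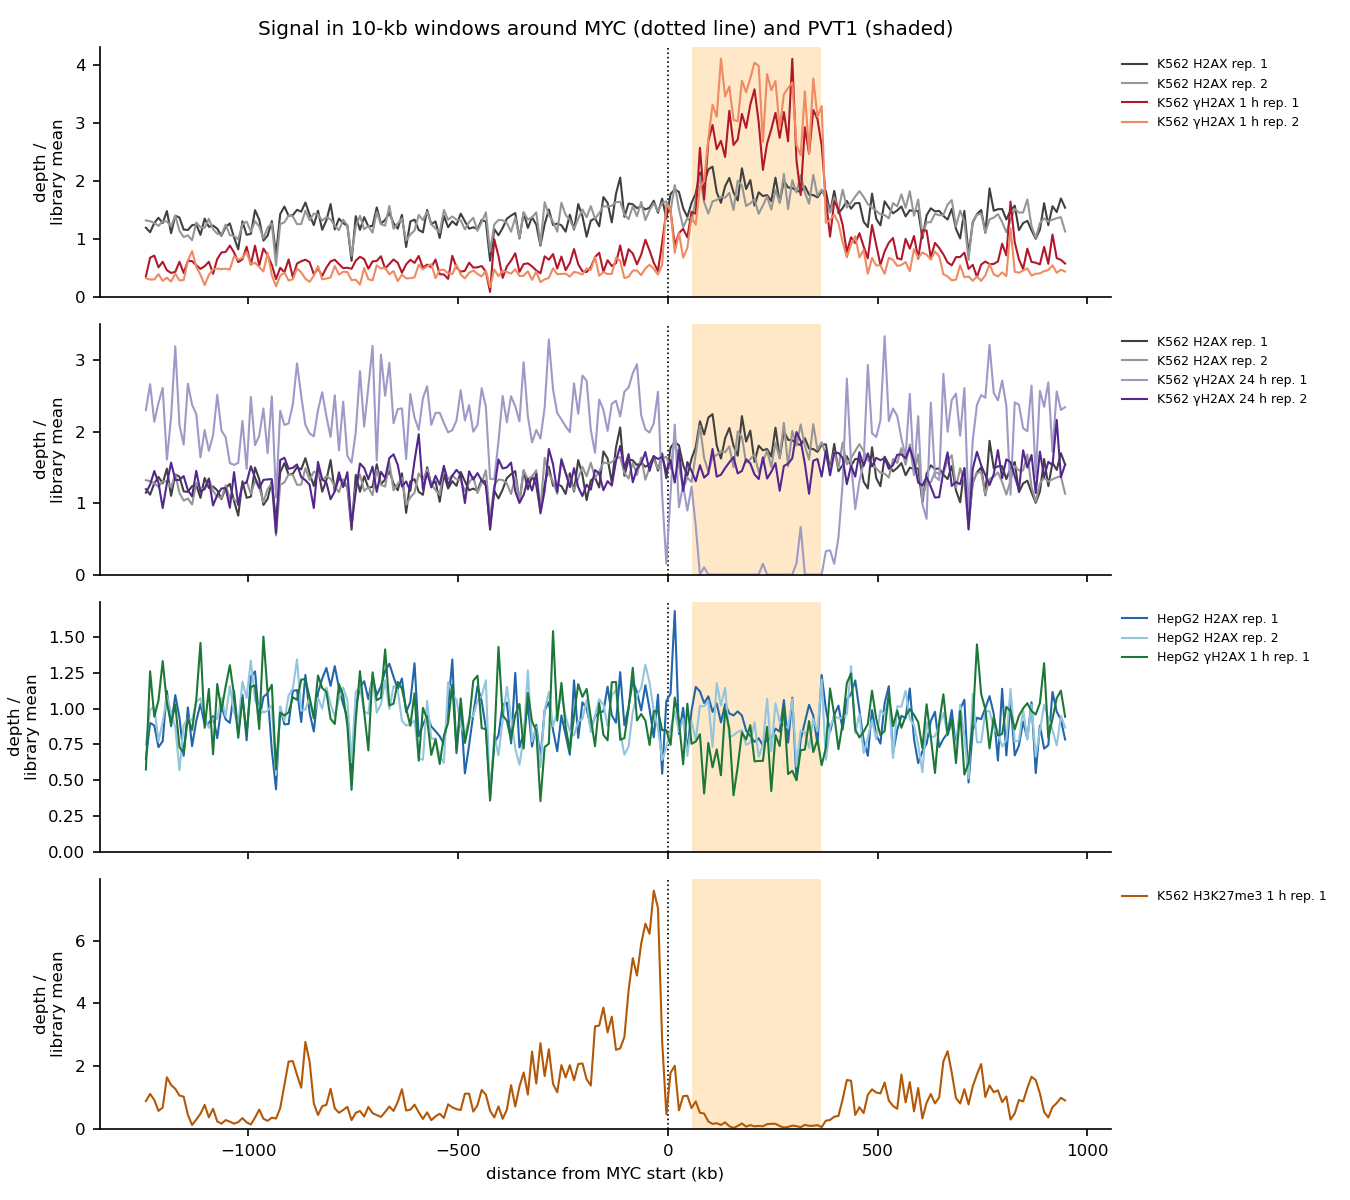
Depth in 10-kb windows divided by the library mean (vertical axes, linear), against distance from the start of MYC in kb; 1 line per library, MYC start dotted, PVT1 shaded. K562 γH2AX at 1 h stands above H2AX over most of PVT1 and below it on both sides, 24 h replicate 1 drops to 0 in the same place, HepG2 shows no such step, and H3K27me3 peaks just before MYC at 7.59.

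PVT1 carried a broad block of γH2AX in K562 at 1 h, set in a surrounding low in the same mark. The level over the PVT1 body was 2.75 and 3.19 in the 1 h replicates. It was 1.86 and 1.73 in K562 H2AX, 0.0633 and 1.50 at 24 h, and 0.171 in H3K27me3. In HepG2 it was 0.699 in γH2AX and 0.918 and 0.882 in H2AX. The 1 h replicates were the highest of the 10 libraries and did not overlap H2AX. As group means, the order was K562 γH2AX 1 h (2.97 ± 0.312 SD, n = 2), K562 H2AX (1.80 ± 0.0919 SD, n = 2), K562 γH2AX 24 h replicate 2, HepG2 H2AX (0.900 ± 0.0249 SD, n = 2), HepG2 γH2AX and H3K27me3. Of the neighbours in that order, K562 H2AX and 24 h replicate 2 were not separated by the test, nor were the HepG2 antibodies (values below).

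Against K562 H2AX, PVT1 was higher at 1 h by 0.70 on the log2 scale (SE 0.109, limma adjusted p = 0.000607), with the replicates at 0.60 and 0.81. The fit covered all 27610 windows of 100 kb that passed a filter on low H2AX signal, with the stretches of the MYC and PVT1 region as additional rows. Over all windows the median was 0.06 and the 5th and 95th percentiles were -1.35 and 0.79, so the difference at PVT1 is below the 95th percentile and exceeds 92.8% of windows. PVT1 is longer than these windows. Of the 100-kb windows that lie mostly in it, 128900001-129000000 had 0.87, above that percentile, and the others 0.70 and 0.48. The estimate for the PVT1 body was the same with 24 h replicate 1 in the fit, but its SE was 1.09 and its adjusted p 0.637.

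MYC itself was less distinct. Its level was 1.42 and 1.58 in γH2AX at 1 h, 0 and 1.74 at 24 h, 1.14 and 1.06 in K562 H2AX and 0.286 in H3K27me3. HepG2 had 0.695 in γH2AX and 0.70 and 0.521 in H2AX. In K562 both 1 h replicates and 24 h replicate 2 lay above both H2AX replicates. The difference of 0.43 at 1 h (log2, SE 0.206) did not pass the test (limma adjusted p = 0.0924 over 274222 windows of 10 kb), and the difference of 0.64 at 24 h did not either (adjusted p = 0.332). Scaling decides the first: with median-of-ratios scaling the value was 0.54 with an adjusted p = 0.0398, and scaled to chromosome 8 it was 0.53 with 0.0406.

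The body of MYC is short, so few reads stand behind these values. They rest on 204 and 281 read equivalents at 1 h, 112 and 104 in K562 H2AX, 151 in 24 h replicate 2 and 53.0 in HepG2 γH2AX. The exact Poisson 95% intervals, which cover counting error only, ran from 1.23 to 1.63 and from 1.40 to 1.77 at 1 h. They ran from 0.937 to 1.37 and from 0.864 to 1.28 in K562 H2AX. The intervals of 1 h replicate 2 and both H2AX replicates do not overlap, while those of 1 h replicate 1 overlap both. PVT1 was 1.94 and 2.02 times MYC at 1 h, against 1.64 and 1.64 times in K562 H2AX, 0.861 times at 24 h replicate 2 and 1.01 times in HepG2 γH2AX.

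**Figure D2:**
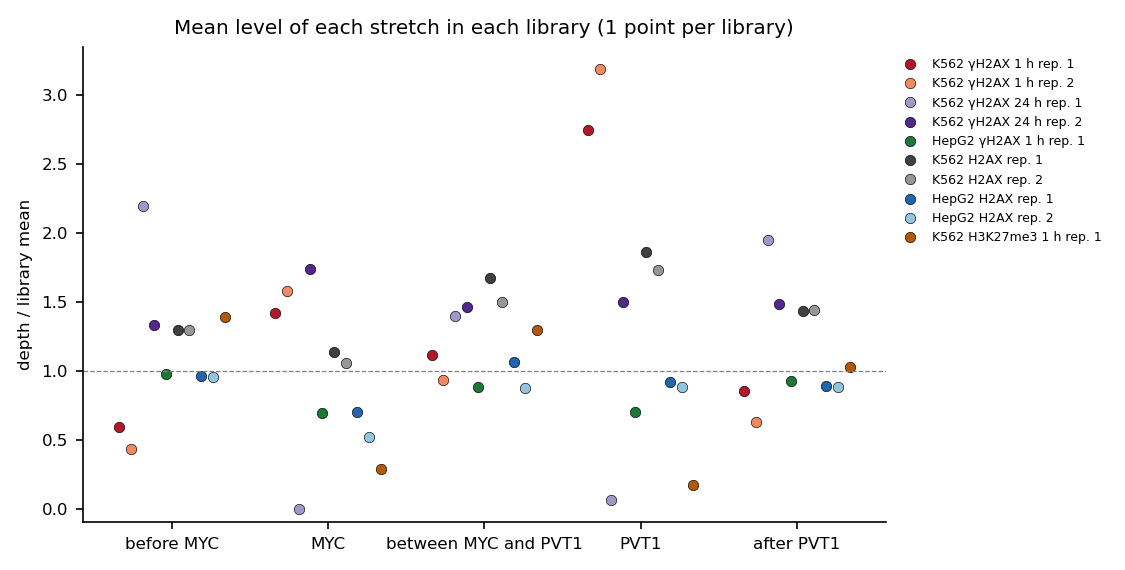
Mean level (depth divided by library mean, linear axis) of each of the 5 stretches, 1 point per library. At PVT1 the 1 h replicates, 2.75 and 3.19, sit above the other libraries; before MYC and after PVT1 they sit at the bottom, and K562 24 h replicate 1 moves the opposite way.

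Outside the gene bodies γH2AX at 1 h was lower than H2AX. Before MYC, the level was 0.592 and 0.436 at 1 h against 1.30 and 1.30 in K562 H2AX, and the difference was -1.27 (log2, SE 0.139, limma adjusted p = 0.000199). Between MYC and PVT1 it was 1.12 and 0.935 against 1.68 and 1.50, a difference of -0.61 (SE 0.133, adjusted p = 0.00368). After PVT1 it was 0.856 and 0.628 against 1.43 and 1.44, a difference of -0.92 (SE 0.140, adjusted p = 0.000564). In all of these stretches the 1 h replicates lay below both H2AX replicates. The differences before MYC and after PVT1 still passed with 24 h replicate 1 in the fit (both adjusted p = 0.0435), and that between the genes did not (0.0631).

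Of the 22 windows of 100 kb in the whole stretch, 3 rose and 18 fell at 1 h, against 33.3% and 37.7% of all windows tested. The 3 that rose lie mostly in PVT1: 128900001-129000000 with 0.87 (SE 0.119), 129000001-129100000 with 0.70 (SE 0.102) and 128800001-128900000 with 0.48 (SE 0.114). The lowest were 127800001-127900000 with -1.52, 127500001-127600000 with -1.51 and 129400001-129500000 with -1.42. The window that did not pass, 129100001-129200000, holds the end of PVT1 and had -0.10 (adjusted p = 0.350). A fit with 24 h replicate 1 gave 0 that rose and 16 that fell, against 0.587% and 17.8% of all windows.

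**Figure D3:**
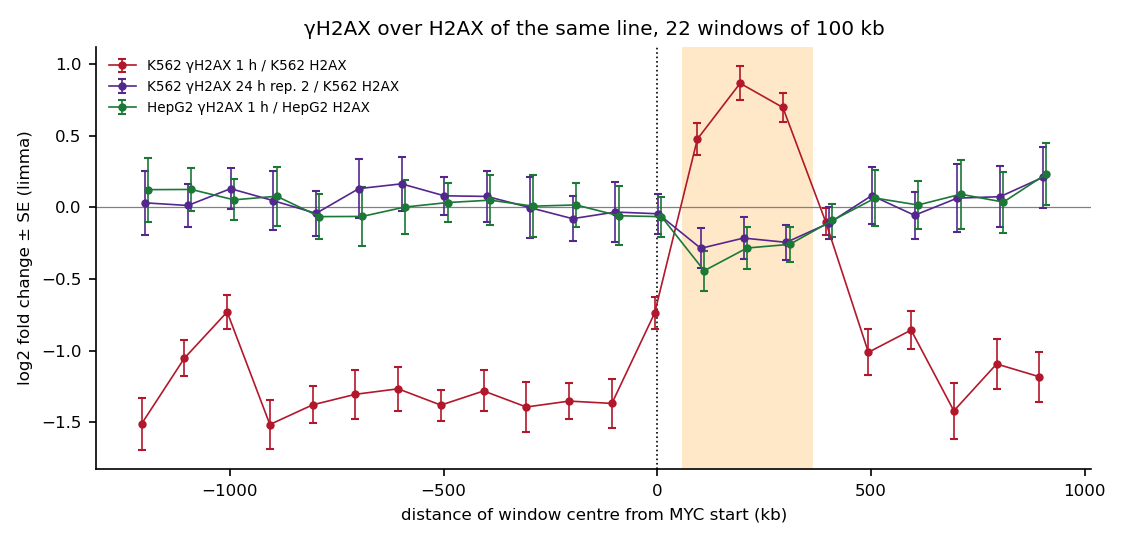
Log2 fold change of γH2AX over the H2AX of the same line with its SE (limma, vertical axis) in the 22 windows of 100 kb, against the distance of the window centre from the start of MYC in kb; points of the 3 comparisons are offset sideways, MYC start dotted, PVT1 shaded. At 1 h K562 runs from -1.52 outside to 0.87 inside PVT1, whereas K562 at 24 h (replicate 2) and HepG2 stay near 0 and dip inside PVT1.

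At 10-kb resolution the block filled most of PVT1. Of the 30 windows wholly inside it, 25 rose and 0 fell at 1 h against H2AX, with a median log2 difference of 0.77. Over the genome 18.7% of 10-kb windows rose and 36.6% fell. All 5 highest of the 220 windows are inside PVT1: they start at 128950001 (1.20), 128960001 (1.08), 128990001 (1.00), 129040001 (0.98) and 128870001 (0.97). With 24 h replicate 1 in the fit 0 of the 30 rose, and limma called 0 of the 274222 windows of the genome, with 84087 at an unadjusted p under 0.05. In the 9 libraries, before MYC 0 of 124 windows rose and 122 fell, with a median of -1.35, and after PVT1 0 of 58 rose and 51 fell, with a median of -1.16. The deepest deficits start at 128320001 (-2.08), 127850001 (-1.95), 129480001 (-1.87), 129420001 (-1.86) and 128590001 (-1.80). Of these, 3 are before MYC and 2 after PVT1.

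Single bins gave the same division. Both 1 h replicates exceeded both H2AX replicates in 202 of 308 PVT1 bins (65.6%) and in 4 of 6 MYC bins, against 22.4% of all bins. They did so in 7 of 1249 bins before MYC (0.56%), in 3 of 54 between the genes and in 13 of 587 after PVT1 (2.21%). Both fell below both H2AX replicates in 1022 bins before MYC (81.8%) and 422 after PVT1 (71.9%), against 33.2% of all bins, and in 20 PVT1 bins (6.49%) and no MYC bin.

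Relative to its own flanks, PVT1 held more of the K562 1 h γH2AX signal than of any other track. The ratio of PVT1 to the mean of the bins before MYC and after PVT1, which does not depend on scaling, was 4.07 and 6.46 at 1 h and 1.39 and 1.29 in K562 H2AX. The means were 5.26 ± 1.69 and 1.34 ± 0.0695 (SD, n = 2 each, two-sided exact permutation p = 0.333, the smallest that 2 against 2 allows). It was 1.08 in 24 h replicate 2, 0.0298 in replicate 1, 0.728 in HepG2 γH2AX, 0.977 and 0.947 in HepG2 H2AX, and 0.134 in H3K27me3. PVT1 took 39.4% and 50.5% of all signal in the stretch at 1 h, 18.3% and 17.3% in K562 H2AX and 2.14% in H3K27me3. The same ratio for MYC was 2.10 and 3.19 at 1 h, 0.848 and 0.788 in K562 H2AX and 1.26 in 24 h replicate 2 (exact permutation p = 0.333 for 1 h against H2AX). Both ratios thus differ by more than the spread of the replicates, in a design too small for the exact test to pass.

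The block did not begin at the annotated start of PVT1. In the 10 kb before the start, γH2AX at 1 h was 1.06 and 0.849, in the first 10 kb inside 1.78 and 1.52, and between 30 and 40 kb inside 2.59 and 2.45. Over 10 equal segments of the gene, segment 1, which begins at the annotated start, had 1.92 and 1.74 at 1 h and 1.94 and 1.76 in K562 H2AX, so the replicates of the antibodies overlapped there. H3K27me3 was 0.628 in that segment and 0.0747 to 0.219 in the other segments. From segment 2 on, γH2AX lay between 2.30 and 3.84 in both replicates, with a dip to 2.30 and 2.79 in segment 9.

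At the other end the block ran slightly past the annotated gene. The last 10 kb inside PVT1 had 2.61 and 2.99 at 1 h, and the first 10 kb beyond its end 2.45 and 2.62. From 10 to 20 kb beyond it the level was 1.35 and 1.20, and from 50 to 60 kb it was 1.00 and 0.932. K562 H2AX was 1.76 and 1.82 in the first 10 kb beyond the end and 1.61 and 1.56 at 50 to 60 kb, a smaller change than in γH2AX.

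The stretch after PVT1 divided in a similar manner. Its first 50 kb had 1.60 and 1.51 at 1 h and 1.64 and 1.67 in K562 H2AX, a log2 difference of -0.09. From 50 kb to the end it had 0.783 and 0.540 against 1.41 and 1.42, a difference of -1.10. Over its 58 windows of 10 kb the median was 0.752 and 0.518 at 1 h, with highest values of 1.68 and 1.42. The windows with the highest mean level at 1 h started at 129140001 (1.65 and 1.42), 129120001 (1.68 and 1.28) and 129560001 (1.64 and 1.19). The first pair lies within 50 kb of the end of PVT1, and the third stands alone 817 kb from the start of MYC, where H2AX was 1.49 and 1.32 and H3K27me3 0.303. 

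Close to MYC, γH2AX at the level of H2AX was limited to a short interval around the gene. In the 10 kb before MYC the 1 h replicates had 1.53 and 1.47 and K562 H2AX had 1.50 and 1.81. Over the 50 kb before MYC the 1 h level was 0.841 and 0.677 against 1.58 and 1.58. In the 10 kb after MYC it was 1.32 and 1.19 against 2.22 and 1.89. The highest bins nearby were the 2 just past the end of the gene, 128754001-128755000 and 128755001-128756000. They had 2.65 and 3.91, and 2.67 and 3.03, at 1 h, and 2.74 and 1.75, and 2.40 and 2.14, in K562 H2AX. Only replicate 2 was above both H2AX replicates in the first of these bins, and both were in the second.

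**Figure D4:**
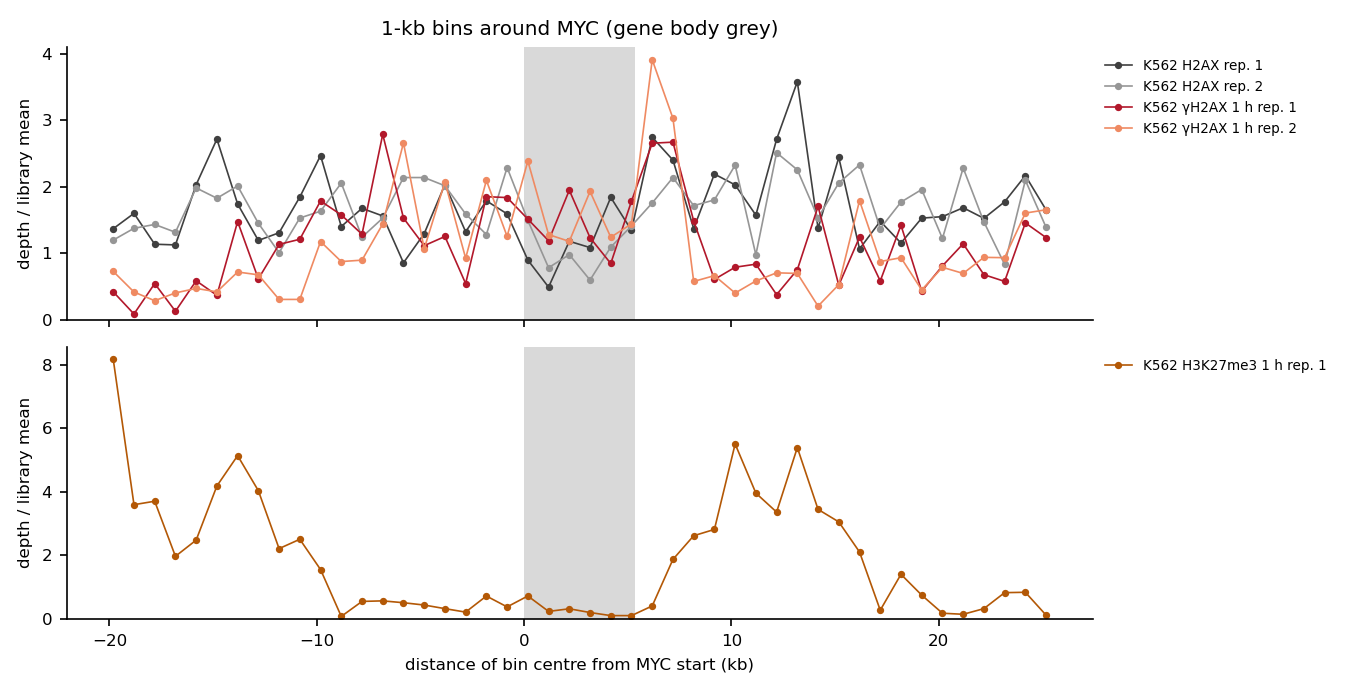
Depth in 1-kb bins divided by the library mean (vertical axes, linear), against the distance of the bin centre from the start of MYC in kb; gene body grey, 1 line per library. γH2AX at 1 h meets H2AX from about 10 kb before MYC to just past its end. H3K27me3 is low over most of that interval. It is low again at 17.2 and from 20.2 to 22.2 kb, where γH2AX is below H2AX, and at 25.2 kb, where the replicates of both overlap.

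H3K27me3 followed a different pattern over the same interval. Its highest 10-kb window in the stretch, 128710001-128720000, had 7.59, and the 5 highest are contiguous from 128680001 to 128730000, just before MYC. The level was 5.03 in the 50 kb before MYC, 0.425 in the last 10 kb, 0.286 in MYC, 3.27 in the 10 kb after it and 0.171 in PVT1. Against K562 H2AX, PVT1 was lower in H3K27me3 by 3.06 on the log2 scale (log2 difference -3.06, SE 0.133, limma adjusted p = 8.57e-08), as were all 30 of its 10-kb windows. MYC was lower too (-1.77, SE 0.252, adjusted p = 1.57e-05, where 63.6% of 10-kb windows were lower), and so was the stretch after PVT1 (-0.46, adjusted p = 0.0303). The stretch before MYC, at 1.39, had a difference of 0.10 (adjusted p = 0.600). Of the 22 windows of 100 kb, 3 were higher and 14 lower than H2AX, against 26.7% and 61.7% of all windows. Median-of-ratios scaling gave 14 higher and 4 lower, where 92.3% of all windows passed in either direction.

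The median difference between H3K27me3 and H2AX was itself below 0, at -1.27 over all 100-kb windows and -1.91 over all 10-kb windows. PVT1 lay below the first median and the stretch after PVT1 above it, and MYC lay close to the second. Median-of-ratios scaling, which raises H3K27me3 by 1.21 on the log2 scale, gave -1.88 for PVT1, 0.21 for MYC and 0.87 after PVT1. The difference at PVT1 kept its direction under library-mean, chromosome 8 and median-of-ratios scaling, whereas those at MYC and after PVT1 changed sign under the last. With 24 h replicate 1 in the fit none of these differences passed, with adjusted p = 0.0816 at PVT1, 0.408 at MYC and 0.157 after PVT1, and 3 of the 30 PVT1 windows of 10 kb were lower, against 44.4% of all 10-kb windows. The call after PVT1 was also lost without K562 H2AX replicate 1 (0.0956), without replicate 2 (0.104) and with chromosome 8 scaling (0.0565). The single H3K27me3 library has no replicate, and its test uses the spread of the other groups.

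Over the 220 windows of 10 kb, the level of γH2AX at 1 h and that of H3K27me3 had a Spearman's rho of -0.469, and over the 188 windows outside PVT1 -0.192. As ratios to H2AX, each to a different H2AX replicate, the values were -0.646 and -0.455. γH2AX at 1 h and H2AX had 0.596 and outside PVT1 0.375. The 1 h replicates had 0.715 with each other. Neighbouring windows share domains and libraries share base composition and copy number, so these values describe the stretch and carry no test.

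At 24 h the block was not seen. In 24 h replicate 2, PVT1 was -0.25 on the log2 scale from K562 H2AX (SE 0.133, limma adjusted p = 0.227). The stretches before MYC and after PVT1 were within 0.04 and 0.05 of it. No window of the 22, or of the 27610 in the genome (0%), passed the test, with 8024 of the latter at an unadjusted p under 0.05. Fitted on the compared groups alone, 18.2% of the 22 windows passed, against 55.2% of all windows, PVT1 had a limma adjusted p = 0.00407 and MYC one of 0.00864. The level of PVT1 in replicate 2, 1.50, lies below both H2AX replicates, and the level of MYC, 1.74, above both.

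The direct comparison of 1 h with 24 h replicate 2 gave 0.96 for PVT1 (SE 0.133, limma adjusted p = 0.000713), -1.31 before MYC (adjusted p = 0.000606), -0.50 between the genes (0.0269), -0.97 after PVT1 (0.00155) and -0.21 for MYC (0.530). Of the 22 windows, 3 were higher at 1 h and 18 lower, against 20.5% and 36.8% of all windows. These comparisons share the 1 h libraries with the comparison against H2AX. With 24 h replicate 1 included, PVT1 had 2.85 (adjusted p = 0.0721) and between the genes the adjusted p was 0.0747. The difference between the genes also failed with median-of-ratios scaling (0.0693), with chromosome 8 scaling (0.151) and in a fit on the compared groups alone (0.0788). Of the 22 windows, 0 were higher and 18 lower with replicate 1 included, where 47.0% of all windows passed in either direction.

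HepG2 showed no block at PVT1. γH2AX at 1 h was 0.699 there, below both H2AX replicates, and the log2 difference was -0.34 (SE 0.133, limma adjusted p = 0.795). The other differences were 0.02 before MYC, -0.12 between the genes, 0.06 after PVT1 and 0.19 for MYC. Over all 100-kb windows the 5th and 95th percentiles were -0.33 and 0.26 in HepG2, against -1.35 and 0.79 in K562. HepG2 γH2AX thus stayed nearer to H2AX over the whole genome, and the lack of a block is not particular to PVT1. The difference at PVT1 was below the 5th percentile, and 4.43% of windows were lower. No window in the stretch or in the genome (0%) passed, with 1660 of 27610 at an unadjusted p under 0.05. HepG2 γH2AX is a single library, and a fit on the HepG2 libraries alone, in which 18.2% of the 22 windows and 30.8% of all windows passed, gave PVT1 an adjusted p = 0.000753. Its 10-kb windows inside PVT1 ran from 0.395 to 1.02 with a median of 0.714.

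The difference between the lines was tested directly, as the log2 ratio of γH2AX to H2AX in K562 minus that in HepG2. It was 1.05 at PVT1 (SE 0.172, limma adjusted p = 0.00543), -1.29 before MYC (SE 0.219, adjusted p = 0.00543) and -0.99 after PVT1 (SE 0.222, adjusted p = 0.00910). Between the genes it was -0.49 (adjusted p = 0.0910) and at MYC 0.24 (0.611), and neither passed. Of the 22 windows, 3 were higher in K562 and 18 lower, against 16.4% and 29.3% of all windows. A fit with 24 h replicate 1 left 0 windows that passed, in the stretch or in the genome, with 4078 of 27610 at an unadjusted p under 0.05. Over the 220 windows of 10 kb the ratios of the lines had a Spearman's rho of -0.218, and of 0.0244 outside PVT1.

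The chromatin background also differed between the lines. K562 H2AX exceeded HepG2 H2AX by 0.96 at PVT1 (log2, SE 0.109, limma adjusted p = 0.000241), 0.81 at MYC (SE 0.206, adjusted p = 0.0112, where 14.1% of 10-kb windows were higher), 0.68 between the genes (0.00294), 0.67 after PVT1 (0.00419) and 0.42 before MYC (0.0325). Of the 22 windows 16 were higher in K562 and 0 lower. Over the genome 54.3% passed in either direction, 6778 windows higher and 8201 lower. Leaving out any 1 of the 4 H2AX libraries lowered both the number of the 22 that passed and the share of all windows. With 24 h replicate 1 in the fit, 1 of the 22 and 8.89% of all windows passed. Copy number, which was not measured here, and the amount of histone or accessible chromatin per copy cannot be told apart in these levels. The call at MYC was lost without K562 H2AX replicate 1 (adjusted p = 0.124), without replicate 2 (0.0737) and without HepG2 H2AX replicate 2 (0.154). The call before MYC was lost when any 1 of the 4 H2AX libraries was left out (0.132 to 0.156). None of the 5 stretches passed with 24 h replicate 1 in the fit (0.0681 to 0.889).

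The authors' deposited peak lists placed γH2AX in PVT1 in K562 at 1 h. They were called on these same libraries, so they are not independent of the levels above. The K562 1 h lists hold 39 and 53 peaks in the stretch, of which 37 and 52 touch PVT1 and 2 and 2 lie in or reach into the stretch after it. No peak touches MYC, the stretch before it or the interval between the genes. The peaks cover 15.9% and 33.3% of PVT1, against 1.86% and 2.79% of all binned sequence covered by all peaks of the same lists. The first peak begins 15982 bp and 599 bp inside the start of PVT1, and the last ends 11214 bp and 4087 bp past its end. In the authors' deposited lists, the 24 h libraries (8 and 13 peaks in the genome) and HepG2 (170 peaks) have none in the stretch. These lists have the narrow peak layout and the K562 1 h lists (41947 and 46072 peaks) the broad layout, so their numbers cannot be compared. With so few peaks in the genome, the lack of any here does not show that γH2AX is absent.

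In the authors' deposited lists their median fold enrichment is 1.76 and 1.72, close to the 1.78 and 1.76 of all peaks, and 1 of 39 and 3 of 53 have a q-value under 0.05. These shares of the authors' deposited lists, 2.56% and 5.66%, lie below the 8.10% and 14.7% of all peaks. The highest fold in replicate 1 of the authors' deposited lists is 2.60 at chr8:129098784-129099708, 292 kb into PVT1, and in replicate 2 it is 2.36 at chr8:128993966-128994562, 187 kb into the gene. The longest peak of the authors' deposited lists here, 9634 bp at chr8:128955241-128964874 in replicate 2, lies in the pair of 10-kb windows with the highest log2 differences. At an overlap of at least 1 bp, 31 of the 39 peaks (79.5%) met a peak of the other list, as did 28 of the 53 (52.8%). At a reciprocal overlap of 50% the counts were 10 and 10 (25.6% and 18.9%).

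Within PVT1, 69 bins were touched by peaks of both lists and 239 were not. The touched bins had 3.56 and 4.10 at 1 h, against 2.51 and 2.93 in the others, and the peaks were called on these same libraries, so the excess of 1.41 and 1.40 times is a description. In K562 H2AX the same ratio was 1.05 and 1.08, and in 24 h replicate 2 it was 1.01. The bins outside shared peaks were thus also above H2AX, which had 1.84 and 1.70 there.

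Among the other 100-kb windows of the genome, those most like PVT1 over the 9 fitted libraries, by the root mean square difference of log2 levels, were chr21:34800001-34900000 (0.0703), chr1:33200001-33300000 (0.0777) and chr1:29400001-29500000 (0.0794). The first had 2.63 and 3.09 at 1 h, 1.93 and 1.89 in K562 H2AX and 0.173 in H3K27me3.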

How the data were processed

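Read coverage was taken from the deposited signal tracks, which hold mean depth per base in 1-kb bins on hg19, unscaled. Per the submitters' processing notes, BWA 0.7.12, SAMtools and MACS2 were used, with no roles or settings stated. The deposited peak lists hold, per γH2AX library, each peak's fold enrichment (a ratio) and its p-value and q-value as −log10. Which control the fold refers to is not given in these sources. Each track was divided by its mean without chromosome Y. Windows in which 50% or more of the bins were present, with a mean H2AX level of at least 0.25 over both lines, were tested on log2(level + 0.05), which understates changes of low windows, with limma 3.58.1 in R 4.3.3 (mean-variance trend, 9 libraries, 6 groups, 3 residual degrees of freedom). Benjamini-Hochberg adjustment ran over all rows, threshold 0.05; single-library groups use the shared spread. MYC was a row of the 10-kb fit and the longer stretches were rows of the 100-kb fit. A bin counts for a gene it touches. Read equivalents are depth times bin length over the step size. Replicates differed beyond sampling noise, and unequally between groups. The chi-square per window was 56.1 in K562 γH2AX at 1 h, 4.81 in K562 H2AX and 3.12 in HepG2 H2AX. It was 188 at 24 h, a pair that includes the library left out of the fit. The fit shares 1 spread per window among all groups, so SEs and p-values of comparisons with γH2AX may be too small. Windows named are the 3 highest and 3 lowest of 100 kb and the 5 highest and 5 lowest of 10 kb in the comparison of 1 h with H2AX; other positions were chosen after their values were seen. The members, stretches and tests were chosen with earlier results of these data known. RefSeq (GRCh38.p14) was used for gene order only. Scripts were tested on simulated data and ran in Python 3.11.15 with numpy 2.4.6, pandas 2.3.3, scipy 1.17.1 and matplotlib 3.10.9. In the simulation of 1 h against H2AX, 200 windows of 100 kb were changed. The fit recovered 0% of changes of 0.5 on the log2 scale and 79.5% of changes of 1. Far more windows passed in the data, so recovery there can differ. A missing call at such sizes does not show that a difference is absent.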

Additional observations from a re-analysis of the deposited data

Results flagged for a closer look

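The response of γH2AX over H2AX at 1 h differed between K562 and HepG2 in 3 stretches, by the test of the difference itself. PVT1 had a difference of 1.05 on the log2 scale, the stretch before MYC -1.29 and the stretch after PVT1 -0.99. In HepG2 the underlying log2 differences were -0.34, 0.02 and 0.06 from a single γH2AX library. All 3 calls were lost with K562 24 h replicate 1 in the fit (limma adjusted p = 0.824, 0.334 and 0.334). The difference in read length between the K562 1 h libraries and all HepG2 libraries was not tested as a part of these values.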

How the results depend on the processing

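The log2 difference at PVT1 between 1 h and H2AX, 0.70, kept its direction in all settings tried and its call in all but 1. With 24 h replicate 1 as the tenth library it was 0.70 with a limma adjusted p = 0.637. In that fit the share of the 22 windows passing fell to 0% for the difference between lines, 4.55% for K562 against HepG2 H2AX and 36.4% for H3K27me3 (0%, 8.89% and 69.5% of all windows), and at MYC the 24 h differences became -1.94 from H2AX and 2.37 for 1 h against 24 h. At MYC the 1 h value of 0.43 passed at 0.54 with median-of-ratios scaling and at 0.53 with chromosome 8 scaling. Without single replicates PVT1 ran from 0.60 to 0.81, MYC from 0.36 to 0.50 (passing without 1 h replicate 1), and the share of windows for K562 against HepG2 H2AX from 31.8% to 36.4%. With replicate 1 in place of replicate 2 at 24 h, the share for 24 h against H2AX ranged up to 90.9% (0% otherwise; 74.9% of all windows) and MYC had -4.52 from H2AX and 4.95 for 1 h against 24 h. Fitted on the compared groups alone, 18.2% of windows passed for 24 h and 18.2% for HepG2 (55.2% and 30.8% of all windows). Median-of-ratios scaling turned H3K27me3 to 1.07 between the genes, 0.87 after PVT1 and 0.21 at MYC. Other reversals were near 0: 24 h before MYC -0.0211 and after PVT1 -0.0134 (median-of-ratios) or -0.0625 and -0.0548 (chromosome 8), and HepG2 before MYC -0.0209 (chromosome 8). Without either HepG2 H2AX replicate, HepG2 ran from -0.254 to 0.0131 between the genes and from -0.00946 to 0.382 at MYC. Deviations of replicates with the same number had correlations between groups of 0.178, 0.0274 and 0.305. With so few replicates these values cannot show whether the replicate numbers pair the libraries. With the replicate block PVT1 stayed at 0.70 (limma adjusted p = 0.00260) and 95.5% of the 22 windows passed, against 73.2% of all windows. In that fit 24 h between the genes became 0.00229, and HepG2 became -0.0477 before MYC and -0.00727 after PVT1. The mean 1 h level of MYC, 1.50, was 1.35 over bins wholly inside and 1.37 as a median. At q under 0.05 the lists keep 1 and 3 peaks, and at reciprocal overlap 10 and 10 are shared. The cause of each change was not tested.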
